A study of Homo sapiens with 16 samples.

Results

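SNORD113 and SNORD114 are 2 families of small nucleolar RNAs (snoRNAs) encoded in tandem in the imprinted region of chromosome band 14q32. Every row of the deposited snoRNA table whose name starts with SNORD113 or SNORD114 was taken, which gave 30 of 413 rows, 8 of SNORD113 and 22 of SNORD114. Small RNA had been sequenced from the prostate cancer line PC3, from the breast cancer line MDA-MB-231 (MDA-231 in the labels) and from extracellular vesicles (EVs) released by each line into its medium. The study asked how EV isolation by an aqueous system of 2 phases (next-gen ATPS), in which EVs partition between a polyethylene glycol and a dextran phase, compares with ultracentrifugation (UC) and the Qiagen exoRNeasy kit. Each line gave 2 libraries of cells and 2 of EVs by each of the 3 methods, so there were 8 groups of 2 libraries and 16 libraries in all. Both lines were labelled as wild-type, untreated epithelial cells, and EV donor cells were kept in serum-free medium before collection. UC libraries carry the label VC, which was read as UC because it is the remaining method named. No source states whether replicate libraries are separate cultures, and p-values then describe only how far these libraries scatter, which may be technical.

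Box C/D snoRNAs are short nucleolar RNAs that carry a C box near the 5′ end and a D box near the 3′ end, bind fibrillarin and its partners, and guide ribose methylation of other RNAs by base pairing. SNORD113 and SNORD114 belong to the orphan members of this class, for which no ribosomal RNA target is established. They lie in introns of a long noncoding transcript, MEG8, within the DLK1-MEG3 domain, where noncoding genes including a large miRNA cluster are expressed from the maternal chromosome and the protein-coding genes DLK1 and RTL1 from the paternal one. High expression of this domain is best known from brain, placenta and stem cells.

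Of the 30 rows, 29 matched a gene of the same name in GENCODE v44 on hg38, the build the authors aligned to. The row named SNORD113, with no further number, matched none. The 29 genes were 70 to 78 bases long, lay on the plus strand between bases 100929919 and 100990160 of chromosome 14, a span of 60.2 kb, and all fell within MEG8 (chr14:100894770-101038859). Of these, 14 overlapped an exon of at least 1 annotated MEG8 transcript and 15 lay in its introns. GENCODE lists 39 genes of the 2 families, 10 of them without a row among those analysed here.

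The 6 members on which the results below turn are printed as read from hg38 (GENCODE v44), 5′ to 3′, with the C box (TGATGA) and the D box (CTGA) in capitals. SNORD114-22 (chr14:100982926-100982997), SNORD114-26 (chr14:100987046-100987117), SNORD113-7 (chr14:100941126-100941202), SNORD114-23 (chr14:100983876-100983947) and SNORD114-3 (chr14:100953349-100953423) were the 5 most abundant members in PC3 cells. SNORD113-9 (chr14:100945649-100945720) is shown for its level in PC3 UC EVs.
SNORD114-22: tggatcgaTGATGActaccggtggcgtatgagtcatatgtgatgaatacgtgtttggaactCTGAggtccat
SNORD114-26: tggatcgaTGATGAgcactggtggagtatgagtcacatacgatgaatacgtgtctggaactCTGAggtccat
SNORD114-23: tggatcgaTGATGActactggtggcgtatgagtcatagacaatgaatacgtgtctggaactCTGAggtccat
SNORD114-3: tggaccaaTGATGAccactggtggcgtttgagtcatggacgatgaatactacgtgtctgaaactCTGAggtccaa
SNORD113-7: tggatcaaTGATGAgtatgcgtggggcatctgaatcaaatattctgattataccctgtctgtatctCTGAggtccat
SNORD113-9: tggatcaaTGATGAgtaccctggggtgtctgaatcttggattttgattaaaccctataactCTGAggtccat

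In all 6 the C box began at base 9. The letters TGATGA were found on the sense strand within the first 20 bases of 26 of the 29 members (89.7%), against 67.5% of 295 GENCODE genes named SNORD. The letters CTGA stood within the last 16 bases of 29 of 29 members, against 89.8% of the SNORD genes. The SNORD114 members resembled each other more than they resembled SNORD113: identity had a median of 80% over 231 SNORD114 pairs and of 67.6% over the pairs between the families. SNORD114-22 and SNORD114-23 were 91.7% identical, as were SNORD114-23 and SNORD114-26. Such likeness bears on counting, because the authors kept reads of 18 to 35 bases. No member had every window of 18 bases at a single site of hg38, and the share of such windows ranged from 14.5% in SNORD114-21, with a median of 70.9%. With windows of 30 bases, 19 of the 29 members were found at a single site throughout and the lowest share was 74.4%, in SNORD114-28. Values of single SNORD114 members are therefore uncertain in how reads were split among relatives. If each read was counted in a single row, the sum does not depend on the split among the 30 rows. That was not tested, and 58 rows of the whole snoRNA table had the same reads in all libraries as another row. The sum can also depend on reads shared with sites outside the cluster or with family genes that have no row. Of the windows of 18 bases, 17 of 57 in SNORD113-8, 15 of 58 in SNORD114-4 and 0 of 55 in SNORD114-23 had a site outside the cluster. How such reads were assigned was not tested.

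The snoRNA table held 16635 to 10849128 reads per library, with 3555333 or more in 3 of the 4 cell libraries and 41519 to 400429 in EV libraries. The second library of MDA-MB-231 cells stood apart with 16635 reads, so each result on those cells is also given from the first library, which had 3900437. The deposited values are CPM, each row's share of the snoRNA reads of its library scaled to the same total in every library, and intervals below are exact 95% intervals that cover counting error only. Replicates differed by more than sampling noise in all 8 groups (chi-square test over the table, largest p = 1.16e-09). As a check on cell type, miRNAs typical of epithelium, the miR-200 family, had 22 of 131830 miRNA reads in PC3 cells and 7 of 44523 in MDA-MB-231 cells. miR-141, miR-205 and miR-429 had no entry. miRNAs typical of neurons had more reads, 109 in PC3 cells and 18 in MDA-MB-231 cells, so the check did not settle the cell type.

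In PC3 cells the cluster was expressed at a low level, with few reads at its ends. SNORD113-3 and SNORD113-4 at one end had 1 read each over both libraries, and SNORD114-29 at the other had 2. The members summed to 763 reads (215 CPM) in the first library and 2068 reads (191 CPM) in the second, a mean of 203 ± 17.0 CPM (SD, n = 2). All 30 had a read in at least 1 of these libraries, 24 had a read in both and 19 had at least 10 reads in both, 6 of SNORD113 and 13 of SNORD114. SNORD114 rows held 75.98% of the 2831 reads. Mean levels of single members ranged from 0.0461 to 30.02 CPM with a median of 4.47 CPM, which placed them between rank 190 and rank 391 of the 399 snoRNAs above 0 in these cells. The order of the members was alike in both libraries (Spearman coefficient 0.937 over 30 members, a description of a single locus).

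The most abundant member was SNORD114-22, an orphan C/D snoRNA like the rest, with 126 and 267 reads (35.4 and 24.6 CPM). SNORD114-26 had 104 and 269 reads (29.3 and 24.8 CPM), and SNORD113-7 had 73 and 255 (20.53 and 23.50 CPM). These 3 stood above the others in both libraries. SNORD114-23 followed with 65 and 161 reads and SNORD114-3 with 51 and 157, and the 5 together held 54.0% of the member reads. SNORD114-25 had 46 and 148 reads, SNORD114-1 38 and 107, SNORD114-28 34 and 111, SNORD114-12 31 and 67, and SNORD113-9 only 20 and 54. At the other end, 10 members had at most 10 reads over both libraries. They were SNORD113-3, SNORD113-4, SNORD114-4, SNORD114-6, SNORD114-10, SNORD114-13, SNORD114-15, SNORD114-17, SNORD114-24 and SNORD114-29.

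High and low levels alternated along the cluster. Members with 5 CPM or more and members near 1 read lay beside each other over the whole 60.2 kb, as SNORD114-24 (2 and 3 reads) between SNORD114-23 and SNORD114-25. Members over MEG8 exons and in its introns covered the same range: the 14 overlapping members ranged from 0.0461 to 27.0 CPM with a median of 3.32 CPM, and the 15 intronic members from 0.0461 to 30.02 CPM with a median of 4.69 CPM.

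**Figure D1:**
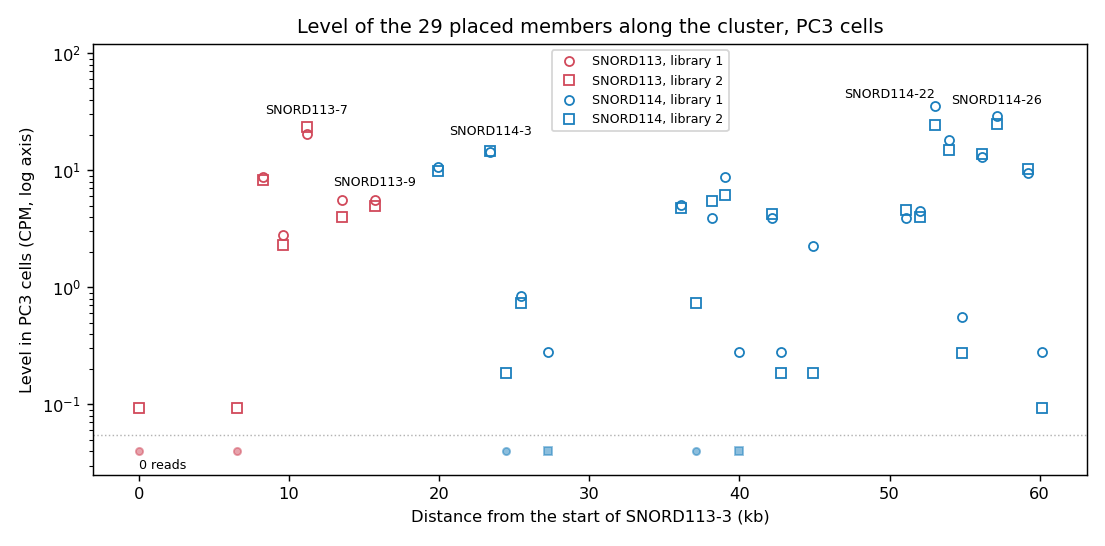
Level of the 29 placed members in PC3 cells (CPM of snoRNA reads, log axis) against the distance of their start from that of SNORD113-3 in kb; circles are the first and squares the second library, red is SNORD113 and blue SNORD114, and filled symbols below the dotted line had 0 reads. Levels span from 1 read to 35.4 CPM, and abundant and nearly silent members alternate along the 60.2 kb.

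In MDA-MB-231 cells the cluster was close to undetected. The first library held 3 member reads among 3900437 (0.769 CPM), 1 each of SNORD113-5, SNORD114-3 and SNORD114-20, where the PC3 level would have given 790 reads. The second library held 0 reads, which allows up to 180.3 CPM (3 reads) and, by the exact 95% limit, up to 222 CPM, beside 191 and 215 CPM in PC3 cells, so a difference from PC3 cells was not clearly separated at this depth. Pooled over its reads, the PC3 level was 255.5 times that of the first MDA-MB-231 library (interval 87.3 to 1240). The ratio was of like size for SNORD113 (184, interval 32.9 to 7283) and SNORD114 (291, interval 80.5 to 2406).

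Of the 27 members with no read in the first MDA-MB-231 cell library, 16 were above its floor of 3 reads (0.769 CPM) in PC3 cells. They were at least 3.16-fold to at least 35.5-fold higher in PC3 cells, the last for SNORD114-22. The other 11 were too low in PC3 cells for a comparison at this depth. SNORD114-3 was higher in PC3 cells by a factor of 56.3 (interval 9.998 to 2235, 208 reads against 1), and SNORD113-5 by 32.5 (interval 5.72 to 1294, 120 reads against 1).

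Of the 30 members, 20 reached 1 CPM in at least 2 libraries and entered the tests, so members counted below are those that passed this filter. The row SNORD113 passed it through the 2 PC3 cell libraries alone (5.91 and 3.41 CPM), so its direction against PC3 cells was fixed by the filter. SNORD113-6 and SNORD114-20 passed it only with the help of PC3 cells. These rows are also among those given to edgeR and DESeq2. With limma on log2(CPM + 20), SNORD113-7 fell by 1.07 on that scale from PC3 to MDA-MB-231 cells (SE 0.32, adjusted p = 0.0221), after 20.53 and 23.50 CPM in PC3 cells and 0 in both MDA-MB-231 libraries. SNORD114-3 fell by 0.77 (SE 0.25, adjusted p = 0.0333), after 14.3 and 14.5 CPM against 0.256 and 0. In the second MDA-MB-231 cell library 1 read is 60.1 CPM, above either member's level in PC3 cells, so its 0 carries little information on them. These were 2 of 20 members called lower, against 17.9% of all 357 snoRNAs tested. The pseudocount of 20 is as large as most of these levels and compresses their differences: the median difference was -0.40 over the 20 members and -0.20 over all tested rows. edgeR on the recovered reads called 19 of the 20 lower, against 23.2% of all rows, and DESeq2 called 1. With limma, both calls were lost when either PC3 cell library or either MDA-MB-231 cell library was left out (adjusted p = 0.0899 to 0.132 for SNORD113-7 and 0.12 to 0.186 for SNORD114-3), and 2 or 3 members were called when any other library was left out.

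**Figure D2:**
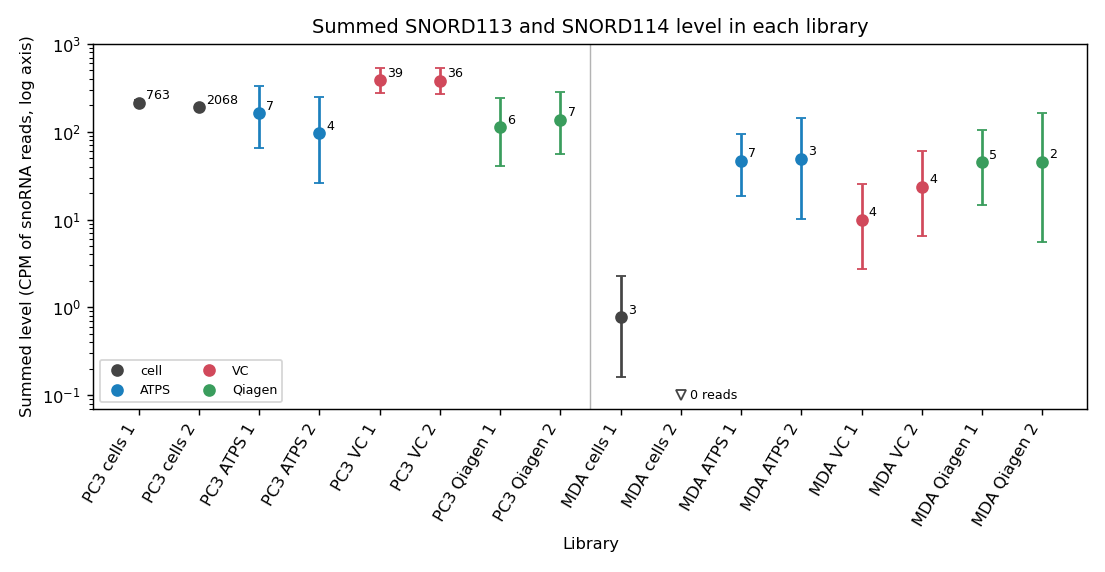
Summed level of the 30 members in each of the 16 libraries (CPM of snoRNA reads, log axis), with exact 95% counting intervals as bars and the number of reads beside each point; VC is the label of UC libraries, and the open triangle marks 0 reads. PC3 libraries lie between 96.3 and 386 CPM, MDA-MB-231 EVs between 9.99 and 49.3 CPM and the first MDA-MB-231 cell library at 0.769 CPM.

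Reads of the cluster were found in EV libraries of both lines, at different levels. The paper reports that ATPS brings down cell-free RNA along with EVs, and whether these reads lay inside vesicles was not tested. In PC3 EVs the sum was 7 and 4 reads (163 and 96.3 CPM) by next-gen ATPS, 39 and 36 reads (386.4 and 382.1 CPM) by UC, and 6 and 7 reads (112 and 137 CPM) by exoRNeasy. In MDA-MB-231 EVs it was 7 and 3 reads (46.3 and 49.3 CPM) by next-gen ATPS, 4 and 4 reads (9.99 and 23.6 CPM) by UC, and 5 and 2 reads (44.6 and 45.6 CPM) by exoRNeasy. Every PC3 EV library was above every MDA-MB-231 EV library. The means were 213 ± 135 and 36.6 ± 15.97 CPM (SD, n = 6 each), a ratio of 5.82, and the ratio of pooled reads was 9.67 (interval 6.18 to 15.7). By method the pooled ratio was 2.76 (interval 1.06 to 7.25) for next-gen ATPS and 2.77 (interval 1.03 to 8.21) for exoRNeasy. For UC it was 27.4 (interval 13.2 to 65.7). Without SNORD113-9 the ratio over all methods was 6.93 (interval 4.34 to 11.4). The next-gen ATPS ratio was then 2.51, with an interval that held 1 (0.937 to 6.72). In these bulk samples, fewer vesicles or cells that carry an RNA and less of it in each cannot be told apart.

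Of the 30 members, 20 had a read in at least 1 EV library, 18 of them in PC3 EVs and 15 in MDA-MB-231 EVs. The 10 seen in no EV library were the row SNORD113 and SNORD113-4, SNORD114-4, SNORD114-6, SNORD114-10, SNORD114-13, SNORD114-15, SNORD114-17, SNORD114-24 and SNORD114-29, of which the row SNORD113 alone had more than 10 reads in PC3 cells (21 and 37). Drawn down to 41519 reads, the smallest EV library, the PC3 cell libraries would show 6.51 and 5.99 members, PC3 UC EVs 7.71 and 8.22, and the other PC3 EV libraries 2 to 5.82.

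**Figure D3:**
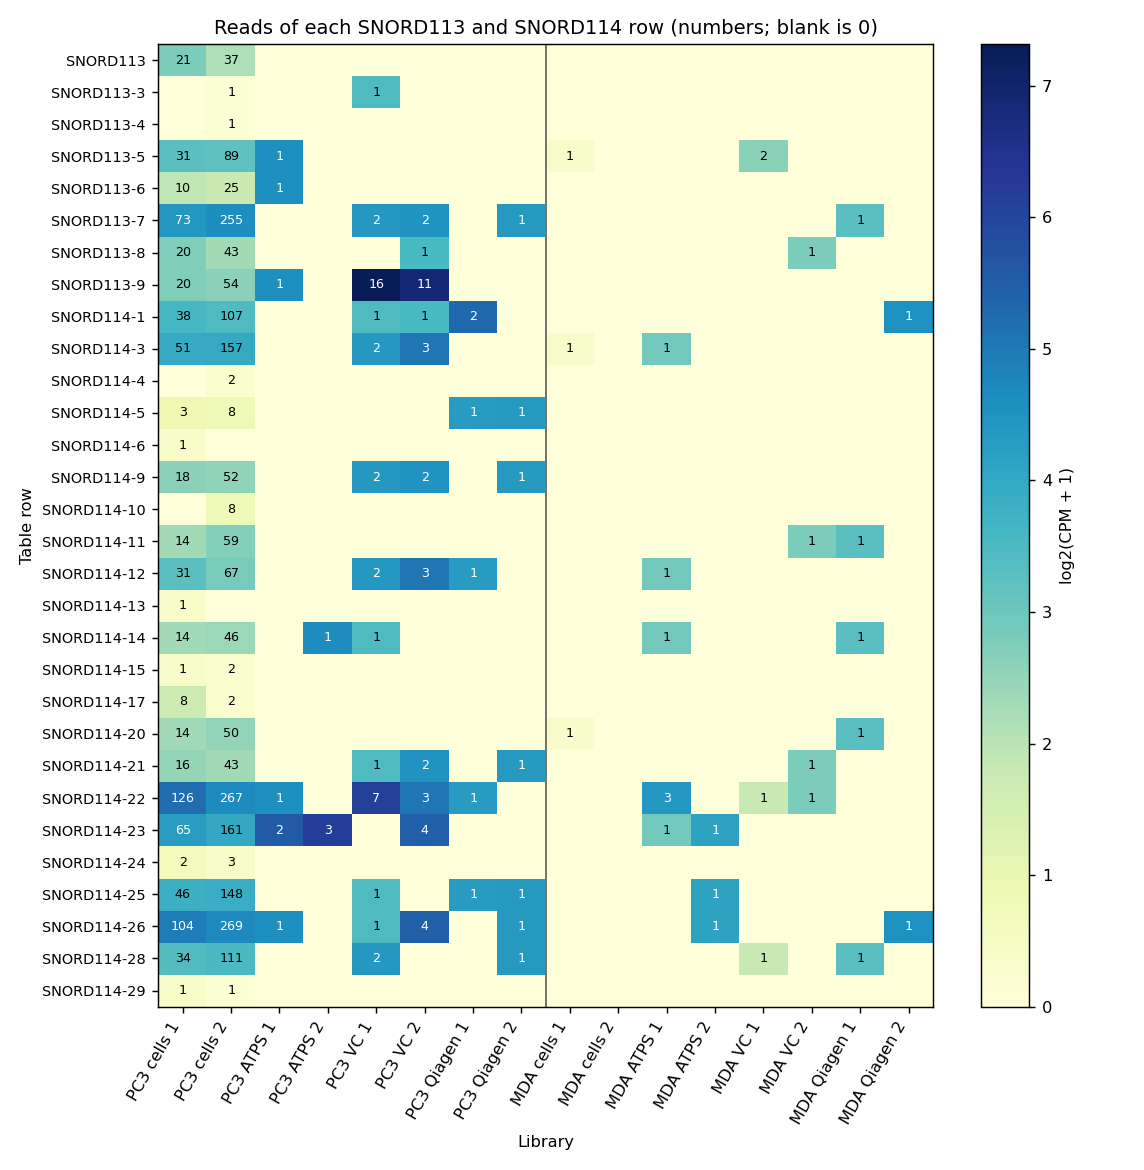
Reads of each of the 30 rows (vertical axis) in each of the 16 libraries (horizontal axis), printed as numbers on a colour scale of log2(CPM + 1), with blank cells at 0; VC is the label of UC libraries. PC3 cells fill nearly the whole column, MDA-MB-231 cells hold 3 single reads, and the darkest cells are SNORD113-9 in both PC3 UC EV libraries.

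In EVs the members were thinly counted. No member had more than 3 reads in an MDA-MB-231 EV library, and, SNORD113-9 aside, none had more than 7 in a PC3 EV library. SNORD114-22 reads in PC3 EVs numbered 1 and 0 by next-gen ATPS, 7 and 3 by UC and 1 and 0 by exoRNeasy, and in MDA-MB-231 EVs 3 and 0, 1 and 1, and 0 and 0 in the same order. SNORD114-26 had 1 and 0, 1 and 4, and 0 and 1 in PC3 EVs, and in MDA-MB-231 EVs 0 and 1 by next-gen ATPS, 0 and 0 by UC and 0 and 1 by exoRNeasy. These 2, the leading members in PC3 cells, were found in EVs of both lines. SNORD114-25 had 1 read in the first PC3 UC library, 1 in each PC3 exoRNeasy library and 1 in the second MDA-MB-231 next-gen ATPS library. SNORD114-1 had 1 read in each PC3 UC library, 2 in the first PC3 exoRNeasy library and 1 in the second MDA-MB-231 exoRNeasy library. SNORD114-28 had 2 reads in the first PC3 UC library, 1 in the second PC3 exoRNeasy library and 1 each in the first MDA-MB-231 UC and exoRNeasy libraries. SNORD114-1, SNORD114-25 and SNORD114-28 were not called by limma in any comparison between EVs.

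Between the EVs of both lines, limma called 5 of the 20 members lower in MDA-MB-231 EVs, against 21.6% of all rows, so the members' share was close to the background. SNORD113-9 had 1 and 0, 16 and 11, and 0 and 0 reads in PC3 EVs by next-gen ATPS, UC and exoRNeasy, and 0 in all 6 MDA-MB-231 EV libraries. It fell by 1.17 on the log2(CPM + 20) scale (SE 0.20, limma adjusted p = 2.5e-04), and these levels overlapped at 0. SNORD114-9 had 2 and 2 reads in PC3 UC EVs and 1 in the second exoRNeasy library, and 0 in MDA-MB-231 EVs (limma adjusted p = 0.0195). SNORD114-12 had 2 and 3 reads in PC3 UC EVs and 1 in the first exoRNeasy library, against 1 read in the first MDA-MB-231 next-gen ATPS library (limma adjusted p = 0.0361). The other calls were SNORD114-23 (limma adjusted p = 0.0314) and SNORD114-5. SNORD114-5 had 3 and 8 reads in PC3 cells (0.844 and 0.737 CPM), 1 read in each PC3 exoRNeasy library (18.7 and 19.6 CPM) and 0 elsewhere, so it passed the filter through those 2 libraries alone. It is counted among the calls here and in the comparisons with exoRNeasy EVs below, but its direction there was fixed by the filter, and it was not tested when either library was left out. The calls of SNORD113-9 and SNORD114-9 were made with every library left out in turn. That of SNORD114-12 was lost in 12 of 16 cases (adjusted p = 0.0526 to 0.0904), all but those without the first PC3 UC, second PC3 exoRNeasy, first MDA-MB-231 next-gen ATPS or second MDA-MB-231 exoRNeasy library. That of SNORD114-23 was lost in 8 of 16 (adjusted p = 0.0537 to 0.0846), namely the second next-gen ATPS, second UC and both exoRNeasy libraries of PC3 and the first next-gen ATPS, both UC and first exoRNeasy libraries of MDA-MB-231. The count fell from 5 to 2 without the first MDA-MB-231 UC library, and to 3 without the second or without either PC3 cell library. Neither edgeR nor DESeq2 called a member here, with 0 and 1 members at an unadjusted p under 0.05.

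Set against their own cells, EVs of the lines differed. In PC3 the pooled EV share was 1.31 times that of cells (interval 1.062 to 1.60), and without SNORD113-9 it was 0.966 times (interval 0.752 to 1.22). The methods differed, and UC gave 75 of the 99 EV reads. UC EVs stood at 1.96 times the cell share (interval 1.53 to 2.46). Next-gen ATPS EVs stood at 0.662 (interval 0.33 to 1.19) and exoRNeasy EVs at 0.634 (interval 0.34 to 1.09). Without SNORD113-9, UC EVs stood at 1.29 (interval 0.945 to 1.71). SNORD114 rows alone stood at 1.44 in UC EVs (interval 1.04 to 1.96). The excess of the EVs pooled over methods also ended with TMM scaling of the libraries, where the log2 ratio moved from 0.39 to -0.066. Limma called SNORD113-9 alone among 20 members (higher in EVs by 0.83, SE 0.29, adjusted p = 0.0442), against 22.7% of all rows called in either direction. That call was lost in 11 of 16 cases with a library left out (adjusted p = 0.0509 to 0.289), all but those without either PC3 next-gen ATPS library, the second PC3 UC library or either MDA-MB-231 exoRNeasy library. edgeR and DESeq2 called none, with 2 and 0 members at an unadjusted p under 0.05. With quantile normalization, 12 members were called lower in PC3 EVs.

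In MDA-MB-231 the pooled EV share was 34.7 times that of the first cell library (interval 10.6 to 179, 25 reads against 3). All 6 EV libraries, at 9.99 to 49.3 CPM, were above the 0.769 CPM of that library, and the second cell library, with its limit of 180.3 CPM, cannot be placed. Member reads did not rise with depth, however. EV libraries held 2 to 7 of them among 43868 to 400429 snoRNA reads, and the first cell library 3 among 3900437. How far the ratio in CPM follows library depth was not tested. Limma called 0 of 20 members, against 49.3% of all rows, with 0 at an unadjusted p under 0.05, and edgeR and DESeq2 called 0 as well. The difference between the EV-to-cell differences of the lines was called for 0 of 20 members by limma, against 18.2% of all rows, with 0 at an unadjusted p under 0.05 and 0 by edgeR and DESeq2.

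Among the methods, UC gave the highest summed level in PC3 EVs and the lowest in MDA-MB-231 EVs. In PC3 the UC mean of 384 ± 3.06 CPM stood beside 129.5 ± 46.9 CPM by next-gen ATPS and 125 ± 17.7 CPM by exoRNeasy (SD, n = 2 each). Pooled, PC3 UC EVs were above next-gen ATPS EVs by a factor of 2.95 (interval 1.56 to 6.17) and above exoRNeasy EVs by 3.09 (interval 1.70 to 6.06). Without SNORD113-9 these factors were 2.08 (interval 1.04 to 4.61) and 1.98 (interval 1.05 to 3.97). In MDA-MB-231 EVs the UC mean was 16.8 ± 9.65 CPM, next to 47.8 ± 2.10 CPM by next-gen ATPS and 45.1 ± 0.666 CPM by exoRNeasy (SD, n = 2 each), from 8, 10 and 7 reads. The UC libraries were the deepest of these, and their counting intervals overlapped those of the other methods. Next-gen ATPS and exoRNeasy libraries overlapped in PC3, and in MDA-MB-231 both next-gen ATPS libraries lay above both exoRNeasy libraries (46.3 and 49.3 against 44.6 and 45.6 CPM), from 10 and 7 reads.

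**Figure D4:**
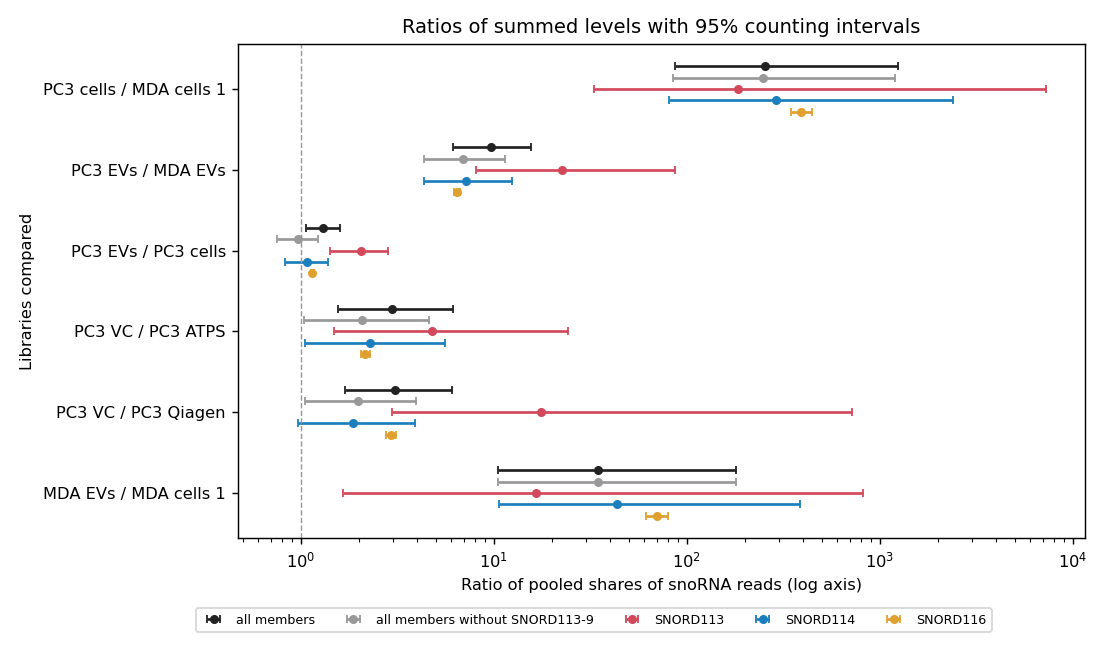
Ratios of pooled shares of snoRNA reads (log axis) for 6 pairs of library sets, with exact 95% counting intervals as bars; colours are all members, all members without SNORD113-9, SNORD113, SNORD114 and the SNORD116 rows, MDA cells 1 is the first MDA-MB-231 cell library, VC is the label of UC, and the dashed line marks a ratio of 1. PC3 cells exceed the MDA-MB-231 cell library by 255.5 times for all members, and the ratio of PC3 EVs pooled over methods to PC3 cells lies near 1 once SNORD113-9 is left out.

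Averaged over both lines, limma called 1 of 20 members between next-gen ATPS and UC EVs, against 0.56% of all rows (2 of 357). This was SNORD113-9, lower by 1.20 on the log2(CPM + 20) scale in next-gen ATPS EVs (SE 0.25, adjusted p = 0.0305). It was lost in 9 of 16 cases (adjusted p = 0.0513 to 0.137), which left out a cell library of either line, the second next-gen ATPS library of either line, the first PC3 UC library or either MDA-MB-231 UC library. Between UC and exoRNeasy EVs it called 3 of 20, against 21.8% of all rows. SNORD113-9 was higher in UC EVs by 1.48 (SE 0.25, adjusted p = 8.4e-04) and SNORD114-3 by 0.59 (SE 0.17, adjusted p = 0.0236). SNORD114-3 had 2 and 3 reads in PC3 UC EVs, 1 in the first MDA-MB-231 next-gen ATPS library and 0 in other EVs. The third was SNORD114-5. The SNORD114-3 call was lost without the second PC3 UC or first MDA-MB-231 UC library (adjusted p = 0.0526 and 0.0572). Between next-gen ATPS and exoRNeasy EVs it called 2 of 20, against 5.88% of all rows: SNORD114-23, higher by 1.30 in next-gen ATPS EVs (SE 0.31, adjusted p = 0.0148), and SNORD114-5. SNORD114-23 had 2 and 3 reads in PC3 and 1 and 1 in MDA-MB-231 next-gen ATPS EVs, 0 and 4 in PC3 UC EVs, and 0 in other EVs. Its call was lost without the second next-gen ATPS library of either line or the first PC3 exoRNeasy library (adjusted p = 0.0512 to 0.0779). edgeR and DESeq2 called 0 members in these 3 comparisons. No member reached an unadjusted p under 0.05 with DESeq2, and 1, 0 and 1 members reached an unadjusted p under 0.05 with edgeR between next-gen ATPS and UC, UC and exoRNeasy, and next-gen ATPS and exoRNeasy EVs.

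Among members with at least 20 reads in PC3 cells, SNORD113-9 was the one whose level in PC3 UC EVs departed most from that in cells, and the comparisons that follow for this member were added after its values were seen. PC3 cells held 20 and 54 of its reads (5.63 and 4.98 CPM), PC3 EVs 16 and 11 by UC (159 and 117 CPM), 1 and 0 by next-gen ATPS and 0 and 0 by exoRNeasy, and all MDA-MB-231 libraries 0. Both UC libraries were above all other libraries. Pooled, its share in PC3 UC EVs was 26.9 times that in PC3 cells (interval 16.7 to 42.4). Of the other 18 members with at least 20 reads in PC3 cells, 13 had a read in PC3 UC EVs, and their ratios ran from 0.381 to 4.22 with a median of 1.23. Members with no such read, as SNORD113-5 (120 reads in PC3 cells), are not in this range or median, which would otherwise be lower. The intervals of 11 of these 13 held 1, and those of SNORD114-9 (4.22, interval 1.12 to 11.3) and SNORD114-12 (3.77, interval 1.20 to 9.09) did not.

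Within the cluster SNORD113-9 made up 27 of 75 member reads in PC3 UC EVs (36.0%, interval 25.2 to 47.9), 41.0% in the first library and 30.6% in the second. In PC3 cells it made up 74 of 2831 (2.61%, interval 2.06 to 3.27), 2.62% and 2.61% in the 2 libraries. In PC3 next-gen ATPS and exoRNeasy EVs together it was 1 of 24 (4.17%, interval 0.105 to 21.1), and in MDA-MB-231 EVs 0 of 25, where a share of up to 13.7% remains possible. SNORD114-22 held 13.9% in PC3 cells (interval 12.6 to 15.2) and 13.3% in PC3 UC EVs (interval 6.58 to 23.2).

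**Figure D5:**
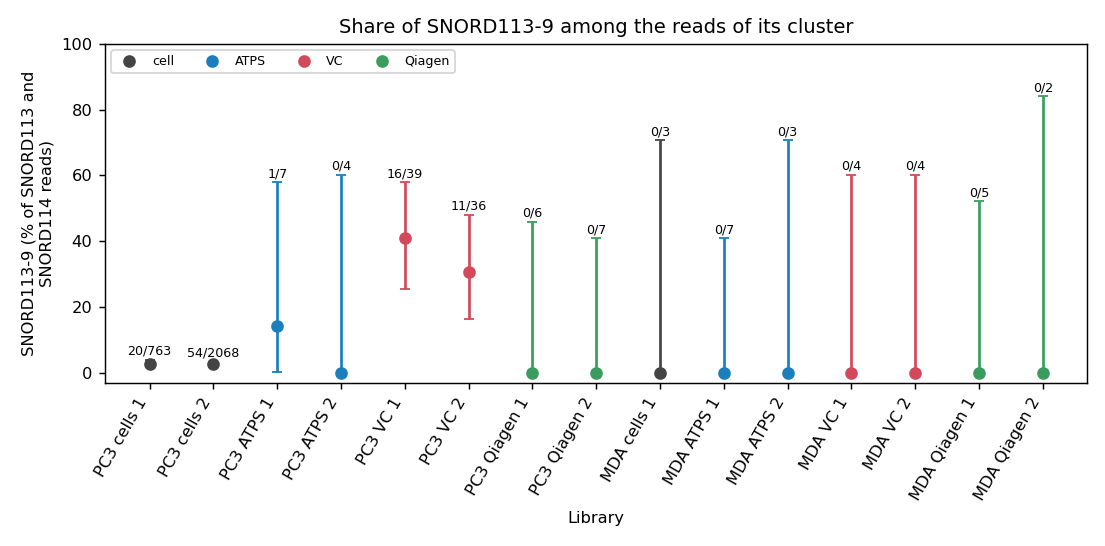
Share of SNORD113-9 among all SNORD113 and SNORD114 reads (percent, vertical axis) in each library with a member read (horizontal axis), with exact 95% intervals as bars and the reads behind each share above them; VC is the label of UC libraries. The PC3 UC EV libraries are at 41.0% and 30.6%, and both PC3 cell libraries at 2.6%.

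With limma SNORD113-9 was higher in PC3 UC EVs than in PC3 cells by 2.63 on the log2(CPM + 20) scale (SE 0.35, adjusted p = 3.8e-05), 1 of 20 members called against 21.8% of all rows. Over the alternatives its adjusted p lay between 8.3e-10 (edgeR) and 0.122 (DESeq2), and it was called in 25 of 26. It was higher in PC3 UC than in PC3 next-gen ATPS EVs by 2.41 (SE 0.35, adjusted p = 0.00133), 1 of 2 calls among 20 members against 0.84% of all rows, and this call was made in 22 of 26 alternatives (adjusted p 5.3e-05 to 0.842), all but edgeR (0.188), DESeq2 (0.842) and pseudocounts of 1 (0.187) and 5 (0.0561). Against PC3 exoRNeasy EVs it was higher by 2.97 (SE 0.35, adjusted p = 9.5e-05), 1 of 3 calls among 20 members against 12.6% of all rows, and it was called in 25 of 25 (adjusted p 8.7e-06 to 0.00902). SNORD114-3 was also called higher against both (1.18, SE 0.25, adjusted p = 0.0223 and 0.0062), the first of which was lost in 7 of 16 cases (adjusted p = 0.0539 to 0.103), without any cell library of either line, the first PC3 next-gen ATPS, the second PC3 UC or the first MDA-MB-231 UC library. The third call against exoRNeasy EVs was SNORD114-5.

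The sequence of SNORD113-9, printed above, was closest to SNORD113-3 (88.9% identity), SNORD113-4 (85.5%) and SNORD113-8 (80%). Those relatives had 1, 0 and 1 reads in PC3 UC EVs. Of its 55 windows of 18 bases, 6 occurred elsewhere in hg38, 0 of them in another gene of the cluster and 6 outside it, and 0 of its 43 windows of 30 bases had another site. Whether its reads cover the whole snoRNA or a fragment was not tested, since the table gives a total per row.

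Other RNAs of the domain had few reads. SNORD112, the snoRNA gene upstream in MEG8, had 1 read, in the second PC3 cell library. Of 51 families of 14q32 miRNAs, 7 had an entry in the miRNA table, with 20 of 131830 miRNA reads in PC3 cells, 10 of 44436 in PC3 EVs, 2 of 44523 in MDA-MB-231 cells and 0 of 71827 in MDA-MB-231 EVs. Most of the PC3 cell reads, 4 and 11, were hsa-miR-409-3p. As a share of their own class, the 14q32 miRNAs made up 0.0152% in PC3 cells and 0.0225% in PC3 EVs. The summed SNORD113 and SNORD114 members made up 0.0215 and 0.0191% of snoRNA reads in PC3 cells and 0.0096 to 0.0386% in PC3 EV libraries. The miRNA counts are thus small in reads but of like size as a share, and the classes were counted separately.

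Outside the cluster, the 5 tested snoRNAs whose levels over the 8 group means were most like the summed members were all SNORD116 rows, from the other imprinted C/D cluster, at 15q11. They were SNORD116-21, SNORD116-29, SNORD116-27, SNORD116-2 and SNORD116-25, with Pearson coefficients of 0.985 to 0.975 on log2(CPM + 20) over 8 groups that share their libraries with the members. The 30 SNORD116 rows together stood at 23868 and 25640 CPM in PC3 cells and at 62.0 and 601 CPM in MDA-MB-231 cells, the last from the library of 16635 reads. The pooled PC3 share was 392 times that of the first MDA-MB-231 cell library (interval 345 to 446), beside 255.5 for SNORD113 and SNORD114, and 40.4 times that of the second (interval 22 to 84.3, 10 reads in the latter). In EVs, PC3 exceeded MDA-MB-231 by a factor of 6.42 (interval 6.19 to 6.66), and MDA-MB-231 EVs exceeded the first cell library by 70.0 (interval 61.5 to 80.1). By method the former factor was 2.94 for next-gen ATPS, 13.8 for UC and 1.90 for exoRNeasy. SNORD116 reads in MDA-MB-231 did not rise with depth either, at 389 to 912 per EV library and 242 in the first cell library. The SNORD116 ratio of PC3 UC to PC3 next-gen ATPS EVs was 2.16 (interval 2.05 to 2.29), beside 2.08 for SNORD113 and SNORD114 without SNORD113-9.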

How the data were processed

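Small RNA libraries of cells and EVs were analysed from the snoRNA and miRNA tables. Quality trimming by the authors used a 4-base window and Q20, lengths of 18 to 35 bases were kept, and STAR (hg38) and COMPSRA, neither with a stated version, gave alignments and annotation. Reads with several sites were retained, with a preference for those with 1 site. Files deposited by the authors are named TPM, yet their values are CPM within an RNA class: 100% were whole multiples of 1 read within 0.1 read, so reads were recovered. The test planned for TPM was kept. Circular RNA was not used.

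limma 3.58.1 (trend, robust) was run on log2(CPM + 20) over 357 rows with at least 1 CPM in at least 2 libraries, with 8 group means and 8 comparisons. Adjusted p-values are Benjamini-Hochberg values over all rows, with a threshold of 0.05. edgeR 4.0.16 (quasi-likelihood, TMM) and DESeq2 1.42.0 on recovered reads, other pseudocounts, filters, normalization, a replicate block and left-out libraries were the alternatives, and 3 comparisons of PC3 UC EVs were added after seeing the data. Sums carry no test. Intervals are exact (Clopper-Pearson or Poisson). On simulated data for MDA-MB-231 against PC3 cells (357 rows), limma recovered 13, 26, 29 and 33 of 50 rows changed 2-fold, 4-fold, 8-fold and 16-fold, and 1 of 27, 4 of 25, 6 of 25 and 7 of 24 of those under 40 CPM. Named members were the 10 with the highest mean over groups and every member called. Members, lists and rules were chosen with earlier results of these data known. The marker lists of blood cells (1 entry, miR-486-5p) had 7 reads in PC3 cells, 11 in MDA-MB-231 cells, 6 in PC3 EVs and 24 in MDA-MB-231 EVs, and those of neurons 109, 18, 14 and 15. Muscle and stem cell lists had 0 entries. Sequences came from hg38 by GENCODE 44 coordinates, aligned with Biopython 1.88.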

Additional observations from a re-analysis of the deposited data

Results flagged for a closer look

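The summed level of SNORD113 and SNORD114 moved in opposite directions between methods in the 2 lines. In PC3 EVs, UC was above next-gen ATPS by 255 CPM and above exoRNeasy by 259 CPM, in every comparison of libraries. In MDA-MB-231 EVs, UC was below next-gen ATPS (a difference of -31.0 CPM) and below exoRNeasy (-28.3 CPM), also in every comparison of libraries. The difference between the lines was not tested. The MDA-MB-231 values rest on 8 UC, 10 next-gen ATPS and 7 exoRNeasy reads. These counts were alike, while the UC libraries were the deepest, with 400429 and 169221 snoRNA reads against 43868 to 151267 in the others. The counting interval of each UC library overlapped that of every other MDA-MB-231 EV library, so the order of the methods was not clearly separated there.

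The miRNA table, which the comparisons do not use, held 20 reads of 14q32 miRNAs in PC3 cells and 10 in PC3 EVs, above the 3 reads that a count of 0 allows, and 0 in MDA-MB-231 EVs.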

How the results depend on the processing

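Counts are of the 20 members tested, of 30 without a filter and of 19 where a PC3 cell or PC3 exoRNeasy library was left out. Alternatives that moved a count by over 1.5 times were, for MDA-MB-231 against PC3 cells (2), a pseudocount of 100 (1), no filter (5), quantile normalization (7), edgeR (19) and DESeq2 (1). For MDA-MB-231 against PC3 EVs (5) they were pseudocounts of 1 and 5 (3 each), quantile normalization (1), edgeR (0) and DESeq2 (0). For PC3 EVs against cells (1) they were a pseudocount of 5 (0), no filter (7, 5 of them lower), quantile normalization (12), edgeR (0), DESeq2 (0) and, added later, leaving out both MDA-MB-231 cell libraries (0), and with a pseudocount of 1 the 1 call was the row SNORD113, lower in EVs, and not SNORD113-9. That row passed the filter through the PC3 cell libraries alone, so the direction of its call was fixed. The line difference of EV-to-cell differences (0) gave 3 without a filter and 1 with quantile normalization. Next-gen ATPS against UC EVs (1) gave 0 with pseudocounts of 1 and 5, quantile normalization, edgeR, DESeq2 and without both MDA-MB-231 cell libraries, and 2 without a filter. Next-gen ATPS against exoRNeasy EVs (2) gave 1 with pseudocounts of 1 and 5, quantile normalization, the block and without both MDA-MB-231 cell libraries, and 0 with edgeR and DESeq2. UC against exoRNeasy EVs (3) gave 1 with quantile normalization and 0 with edgeR and DESeq2. Leaving out each library in turn gave, in the order of this paragraph, 0 to 3, 2 to 6, 0 to 2, 0 to 1, 0 to 2, 0 to 2 and 2 to 4, and 0 throughout for MDA-MB-231 EVs against cells. The cause of these shifts was not tested.

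The log2 ratio of pooled sums was -8.003 for MDA-MB-231 against PC3 cells (-8.13 to -7.96 with each library left out, -7.46 with TMM factors), -3.27 for EVs (-3.49 to -2.72), 5.12 for MDA-MB-231 EVs against cells (4.90 to 5.67, 4.35 with TMM) and 0.39 for PC3 EVs against cells (0.11 to 0.52). The last reversed to -0.050 without SNORD113-9, its most abundant member over groups, and to -0.066 with TMM, and the SNORD113-9 difference itself to -0.22 with edgeR. Over all rows the median of that comparison was 0.12 with limma and -0.32 with edgeR.

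Replicate numbers showed no general pairing of the libraries, though some pairs of groups deviated together. Deviations of same-numbered libraries had a median correlation of 0.07 over 28 pairs of groups, 11 exceeded 0.1 and the highest was 0.52. With the replicate block, 3 members were called between cells, 6 between EVs of the lines, 1 for PC3 EVs against cells, 1 for next-gen ATPS against UC, 1 against exoRNeasy and 3 for UC against exoRNeasy, and over all rows the calls between next-gen ATPS and UC EVs went from 2 to 15. EV sums rest on 2 to 39 reads and each group on 2 libraries.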

Other observations

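The third large group of imprinted C/D rows, SNORD115, was seen in PC3 cells alone, with 155 reads over 26 of 26 rows and 0 reads in every other library. Drawn from 15q11 beside SNORD116, it had a mean of 8.85 ± 5.35 CPM (SD, n = 2) in PC3 cells, against 203 CPM for SNORD113 and SNORD114. At the pooled PC3 cell share, 4.13 of its reads would lie in the 6 PC3 EV libraries together.

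snoRNAs hosted by GAS5, a transcript outside the imprinted regions, went the other way between the cells. The 4 rows present summed to 91 reads (6.08 CPM on average) in PC3 cells and to 59 reads (15.1 CPM) in the first MDA-MB-231 cell library, a PC3 share 0.418 times that of MDA-MB-231 (interval 0.298 to 0.590).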
